A study of Saccharomyces cerevisiae with 16 samples.

Results

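The 10 genes described here encode the core of the folding machinery of the endoplasmic reticulum (ER) and the signalling pair of the unfolded protein response in the budding yeast *Saccharomyces cerevisiae*. They were taken by systematic name and not by their values: *KAR2* (YJL034W), *PDI1* (YCL043C), *EUG1* (YDR518W), *ERO1* (YML130C), *LHS1* (YKL073W), *SIL1* (YOL031C), *JEM1* (YJL073W), *SCJ1* (YMR214W), *HAC1* (YFL031W) and *IRE1* (YHR079C). They are 10 of the 6844 genes measured, and all 10 were among the 6404 genes tested, those whose mean TPM (transcripts per 1000000 transcripts) over all libraries was at least 1.

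RNA was sequenced from 4 libraries each of *atg18∆*, *fab1∆*, *vph1∆* and wild-type haploid cells, 16 in all. Each mutant carried its deletion as a NatMX replacement in the DHY211 background, and all strains, wild-type included, shared the alleles TAO3(1493Q), RME1(INS-308A), MKT1(30G), MIP1(661T), CAT5(91M), HAP1+ and SAL1+. Haploids were spores of diploid DHY parents, and the labels do not say whether more than 1 segregant of a strain was used. Cultures were grown at room temperature in SDC, a synthetic medium with dextrose and amino acids, to an OD600 of only 0.05, with a pair of cultures on each of 2 days. The study chose these strains as unable to oscillate their vacuolar pH. Fab1 is the lipid kinase that makes PtdIns(3,5)P2 on the vacuole, Atg18 holds the Fab1 complex back, and Vph1 is the subunit of the proton-pumping v-ATPase found at the vacuole. The fragmented vacuoles of *vph1∆* could not be tracked in the study, which treated cells with an inhibitor of the v-ATPase instead. The comparisons below ask whether the genes for ER folding differed in RNA level between each mutant and wild-type, and between the mutants.

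The unfolded protein response connects the state of folding in the ER lumen to transcription in the nucleus. Ire1, a kinase and RNase in the ER membrane, is activated when unfolded proteins accumulate and cuts an intron out of the *HAC1* mRNA in the cytosol. The tRNA ligase joins the exons, and the Hac1 protein made from the spliced mRNA activates genes that carry an unfolded protein response element (UPRE), *KAR2* among them. Kar2 (BiP) is the main Hsp70 chaperone of the lumen. Sil1 and Lhs1 exchange its nucleotide, and Jem1 and Scj1 are J proteins that stimulate its ATPase. Pdi1 and its relative Eug1 form and rearrange disulfide bonds, for which Ero1 supplies the oxidizing power.

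The *HAC1* intron is shown first because its removal is the switch of the pathway and because the values cannot report on it. In the R64 assembly (sacCer3) *HAC1* lies on the plus strand of chromosome VI from 75179 to 76147, and the RefSeq annotation places its intron from 75840 to 76091, so that 252 bases separate exons of 661 and 56 coding bases. The junctions are given 5′ to 3′ with the bases of the intron in capitals, for chrVI:75825-75854 and chrVI:76077-76106:
HAC1 first exon to intron: attggcgtaatccagCCGTGATTACGATGA
HAC1 intron to second exon: TGCTTGTACTGTCCGaagcgcagtcaggtt
Each gene has a single TPM value per library, so spliced and unspliced *HAC1* RNA could not be told apart, and the *HAC1* values below are no measure of Ire1 activity.

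The core of the UPRE, CAGNGTG, was searched on both strands of the 500 bases before each start codon. It was found once each upstream of *KAR2* and *LHS1*, and the other 8 genes had no match in this window. The same letters were found in 610 of 6006 such windows (10.2%) over all annotated genes, and CAGCGTG, the form present at both genes, in 140 (2.33%). Both matches are shown 5′ to 3′ on the plus strand with the core in capitals:
KAR2: cgaggaactggaCAGCGTGtcgaaaaagtt
LHS1: tataatatcgaaCACGCTGttataaaagtg
The *KAR2* window is chrX:381155-381184, with 153 bases between the core and the start codon. The *LHS1* window is chrXI:296319-296348, where the core reads on the minus strand, 92 bases from the start codon. A match is a description of the sequence. It was not tested as a site of Hac1 binding in these cells, and a missing match says only that these letters are not in this window.

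The deleted gene was lowest in its own strain in each case. *VPH1* was listed at 0 to 0.191 TPM in *vph1∆* libraries, against 42.3 to 118.0 TPM in the other 12. *ATG18* was at 0 to 0.0106 TPM in *atg18∆* libraries, against 3.27 to 12.8 TPM elsewhere. *FAB1* kept 1.28 to 1.58 TPM in *fab1∆* libraries, against 1.77 to 3.55 TPM elsewhere, so that its 4 libraries lay below all 12 others without reaching 0. The values are relative within each library and hold no read numbers, so depth per library is unknown, and the precision given below rests on the spread between libraries alone, part of which may be technical.

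One library, wild-type replicate 3, differed from all the rest, and this touches every comparison with wild-type. All 10 ER folding genes were lower there than in any other library. *PDI1* was at 83.9 TPM and *KAR2* at 63.3 TPM, 0.267 and 0.343 of their means in wild-type replicates 1, 2 and 4. The median of this fraction was 0.442 over the 10 genes and 0.495 over all genes tested, of which 85.3% were below all 15 other libraries. The fraction moved with gene length: its median was 0.8 over 1045 genes shorter than 600 bases, 0.534 from 600 to 1200 bases, 0.445 from 1200 to 2400 bases and 0.428 in longer genes. Its 10 top genes took up 31.2% of the TPM, where the top 10 of any other library took up 14.4 to 15.9%. The study removed a wild-type sample for poor RNA integrity but does not say which, and the part of RNA quality in these values was not tested. The tests were therefore run both with all 16 libraries and without this one.

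**Figure D1:**
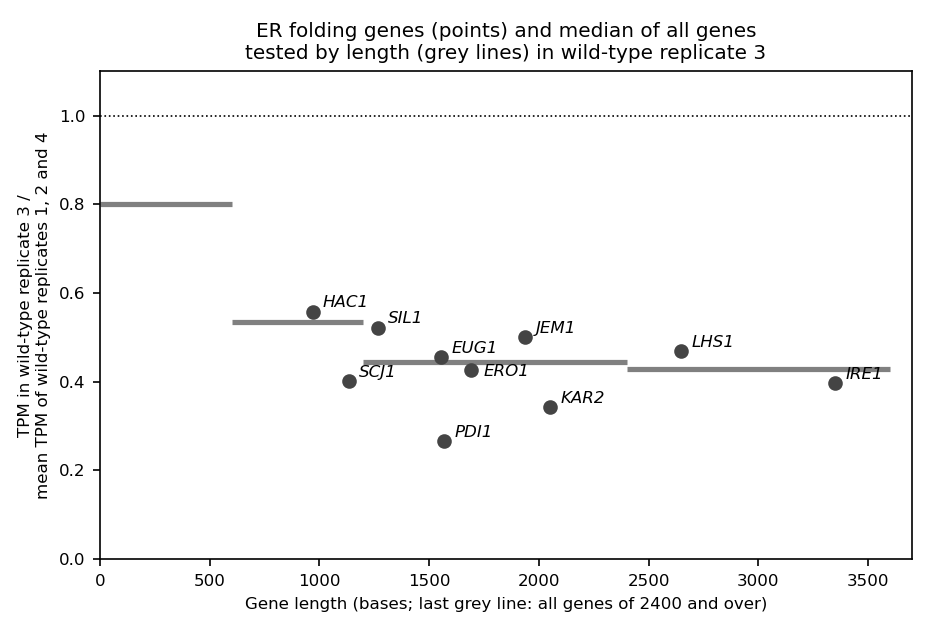
TPM of the 10 ER folding genes in wild-type replicate 3, as a fraction of their mean in wild-type replicates 1, 2 and 4 (vertical axis), against gene length in bases (horizontal axis). Grey lines mark the median of all genes tested in each range of length. All 10 points lie between 0.267 (*PDI1*) and 0.558 (*HAC1*), below the dotted line at 1.

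The 10 genes covered a wide range of levels. TPM is a value per transcript length, so levels can be compared between genes. *HAC1* averaged 325.6 TPM and *PDI1* 304.3 TPM over the 16 libraries, and their ranges overlapped. *KAR2* followed at 156.6 TPM, apart from both neighbours once wild-type replicate 3 was set aside. *ERO1* (36.1 TPM) and *SCJ1* (33.3 TPM) overlapped, and *SIL1* (21.3 TPM), *LHS1* (15.9 TPM), *EUG1* (13.8 TPM) and *JEM1* (11.2 TPM) formed a chain in which each overlapped the next over the other 15 libraries. *IRE1*, the sensor, was lowest at 5.53 TPM, so that the RNA of the transcription factor was far more abundant than that of the enzyme that processes it.

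**Figure D2:**
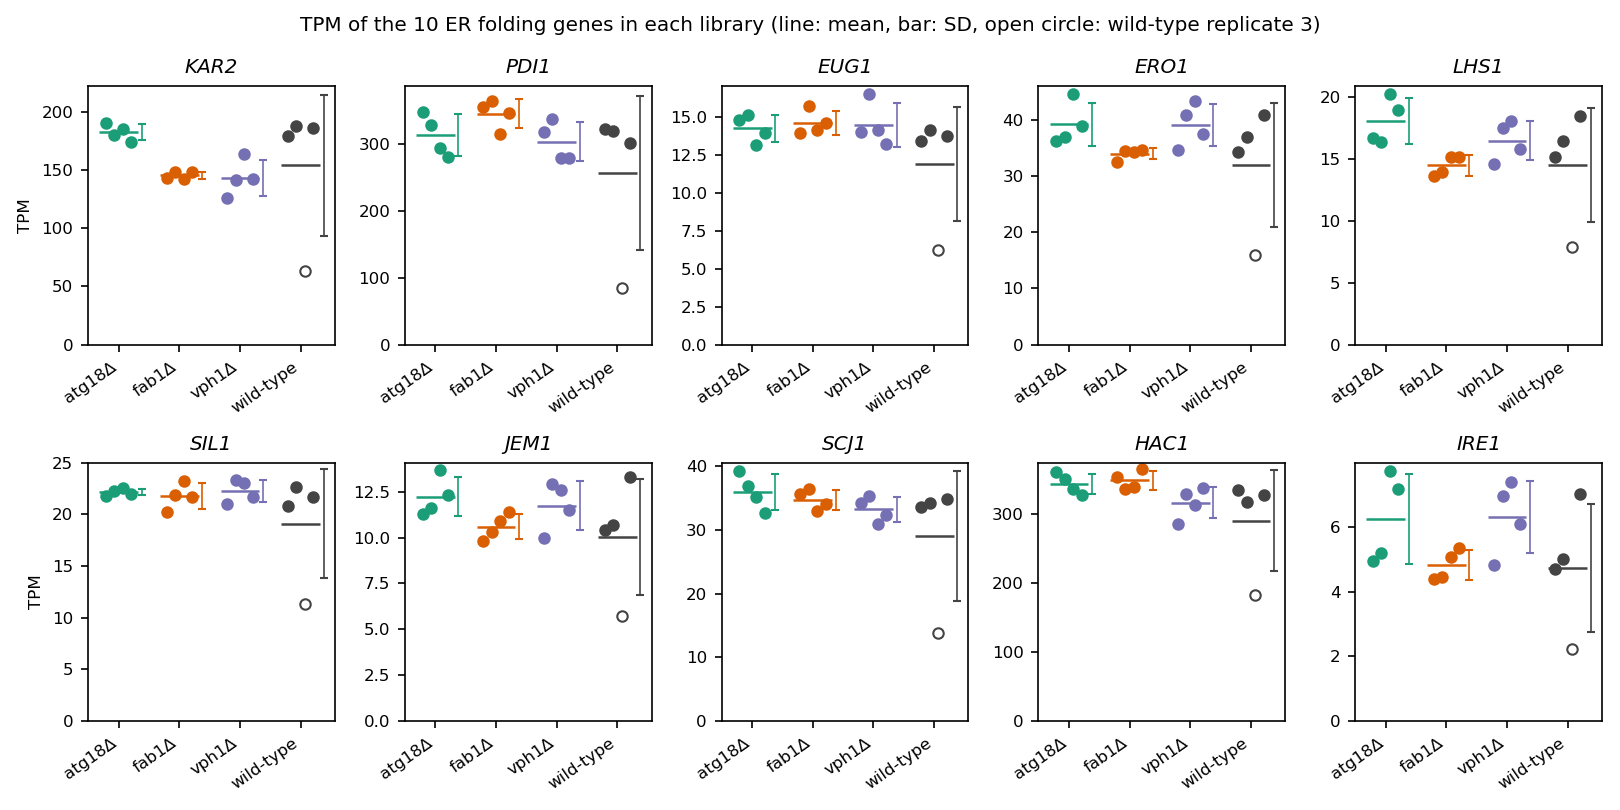
TPM (vertical axis, from 0) of each of the 10 ER folding genes in the 4 libraries of each strain, with *atg18∆*, *fab1∆* and *vph1∆* left of wild-type. Lines mark the mean of 4 libraries and bars the SD, and the open circle is wild-type replicate 3, the lowest library in every panel. *KAR2* lay between 142.4 and 148.3 TPM in *fab1∆* and between 174.8 and 191.0 TPM in *atg18∆*.

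With all 16 libraries, none of the 10 genes passed the test in any mutant against wild-type, and none had an unadjusted p under 0.05 either (limma on log2(TPM + 1), Benjamini-Hochberg over 6404 genes, adjusted p under 0.05). Over all genes the same test called 23.5% in *fab1∆*, 4.87% in *vph1∆* and 0.0468% in *atg18∆*. An unadjusted p under 0.05 was reached by 2328, 1486 and 405 of the 6404 genes in these strains. The 10 genes had a median log2 fold change of 0.36 in *atg18∆*, beside 0.27 over all genes tested. In *fab1∆* the medians were 0.19 for the 10 genes and 0.25 for all genes, and in *vph1∆* 0.26 and 0.27. All 10 estimates were positive in each mutant, as were most genes. When wild-type replicate 3 was left out, the 10 genes had medians of 0.07 in *atg18∆*, -0.05 in *fab1∆* and 0.01 in *vph1∆*, and all genes had medians of 0.05, 0.07 and 0.06 in the same strains. On these 15 libraries 8 of 10 estimates were positive in *atg18∆*, 5 in *fab1∆* and 5 in *vph1∆*. Over all genes tested, 26.3%, 40.8% and 30.8% of the estimates were negative in these strains, so most were positive.

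Once wild-type replicate 3 was left out, *KAR2* was the gene that passed the test against wild-type, in *fab1∆* and in *vph1∆*. This made 1 of 10 genes in *fab1∆*, beside 42.4% of all genes, and 1 of 10 in *vph1∆*, beside 14.7%. In *atg18∆* the count was 0 of 10 by limma, with 0 at an unadjusted p under 0.05, beside 0.0937% of all genes. The share of ER folding genes called was thus no higher than the share of all genes in *fab1∆* and *vph1∆*.

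**Figure D3:**
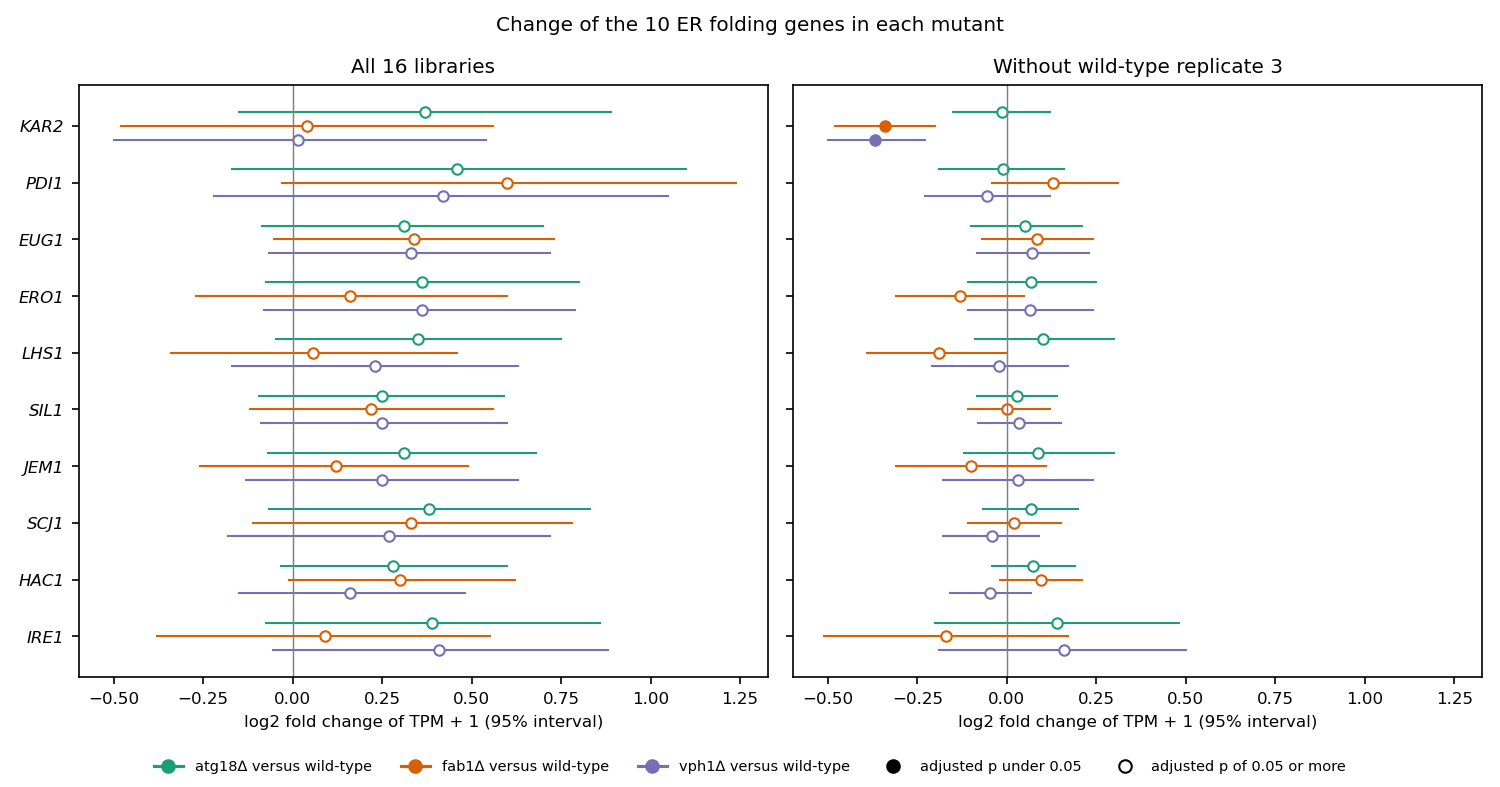
Log2 fold change of TPM + 1 with its 95% interval (horizontal axis) for each of the 10 genes in *atg18∆*, *fab1∆* and *vph1∆* against wild-type, with all 16 libraries (left) and without wild-type replicate 3 (right). Filled points have an adjusted p under 0.05. The filled points are *KAR2* in *fab1∆* (-0.34) and in *vph1∆* (-0.37), both in the right panel only, and the intervals are narrower there.

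*KAR2* encodes the chaperone around which the lumenal machinery is built, and it is a classical target of Hac1. *KAR2* was measured at 143.3, 148.2, 142.4 and 148.3 TPM in *fab1∆* libraries, against 179.4, 188.0, 63.3 and 186.3 TPM in wild-type libraries. It was at 126.4, 141.7, 164.1 and 142.2 TPM in *vph1∆* libraries and at 191.0, 180.3, 185.2 and 174.8 TPM in *atg18∆* libraries. All *fab1∆* and *vph1∆* libraries thus lay below all *atg18∆* libraries and below wild-type replicates 1, 2 and 4, but above wild-type replicate 3. The means were 145.5 ± 3.13 TPM in *fab1∆*, 143.6 ± 15.5 TPM in *vph1∆* and 182.8 ± 6.90 TPM in *atg18∆* (SD, n = 4 each), against 154.3 ± 60.7 TPM in wild-type (SD, n = 4), or 184.6 ± 4.54 TPM (SD, n = 3) without replicate 3.

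The fitted change of *KAR2* took its direction from that library. With all 16 libraries its log2 fold change against wild-type was 0.04 ± 0.25 in *fab1∆* (SE, limma adjusted p = 0.924) and 0.02 ± 0.25 in *vph1∆* (SE, adjusted p = 0.958). On the 15 other libraries *KAR2* was lower than wild-type in *fab1∆*, with a log2 fold change of -0.34 (95% interval -0.48 to -0.20, limma adjusted p = 0.000537). In *vph1∆* it was -0.37 (95% interval -0.50 to -0.23, adjusted p = 0.00122). These are means 21.2% and 22.2% below those of the 3 remaining wild-type libraries. Setting the medians of all libraries equal moved the median of all genes in *fab1∆* to -0.08 with 16 libraries and to -0.04 without replicate 3. *KAR2* in *fab1∆* was then at -0.29 (adjusted p = 0.0791) and at -0.45 (adjusted p = 0.000105). *KAR2* in *atg18∆* was at -0.01 (95% interval -0.15 to 0.12, adjusted p = 0.965) on the same 15 libraries and at 0.37 (adjusted p = 0.294) on 16.

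The same differences could be read between mutants, where no wild-type library enters the means. *KAR2* was 20.4% lower in *fab1∆* than in *atg18∆* and 21.5% lower in *vph1∆* than in *atg18∆*. The log2 fold changes were -0.33 and -0.35, with an SE of 0.246 and adjusted p-values of 0.471 and 1.00 when all 16 libraries set the spread. With wild-type replicate 3 left out the adjusted p-values were 0.000398 and 0.00118 (limma). Fitted on the 8 libraries of the mutants compared, with no wild-type library at all, they were 9.82e-05 and 0.0222. Between *vph1∆* and *fab1∆* the difference was -0.02 (95% interval -0.15 to 0.10 without wild-type replicate 3, adjusted p = 0.75).

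*KAR2* also stood lower relative to the other 9 genes, a ratio within a library on which scaling between libraries has no bearing. *KAR2* over the geometric mean of the other 9 was 4.67, 4.65, 4.48 and 4.52 in *fab1∆* libraries and 4.15, 3.96, 4.80 and 4.43 in *vph1∆* libraries. It was 5.70, 5.39, 5.16 and 5.15 in *atg18∆* libraries, against 5.81, 5.86, 4.45 and 5.37 in wild-type libraries. All *fab1∆* and *vph1∆* ratios were below all *atg18∆* ratios, and wild-type replicate 3 lay among the *fab1∆* and *vph1∆* values rather than with its own strain. The ratio is given as a description, with no test.

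Over all 10 genes, the test between mutants called 0 of 10 in each pair with 16 libraries, and 0 had an unadjusted p under 0.05. The background was 10.9% of all genes for *fab1∆* against *atg18∆*, 0.671% for *vph1∆* against *atg18∆* and 6.29% for *vph1∆* against *fab1∆*. Without wild-type replicate 3 the counts were 3 of 10 lower in *fab1∆* than in *atg18∆* (47.7% of all genes), 1 of 10 lower in *vph1∆* than in *atg18∆* (12.1%) and 1 of 10 lower in *vph1∆* than in *fab1∆* (41.1%). On the 8 libraries of each pair they were 3 of 10 (49.8% of all genes), 1 of 10 (6.51%) and 2 of 10 (43.4%). The comparisons share libraries and are not independent of each other.

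Scaling also moved these counts. With the medians of the 16 libraries set equal, 2 of 10 genes passed in *fab1∆* against wild-type, *LHS1* (-0.27, limma adjusted p = 0.00118) and *JEM1* (-0.21, adjusted p = 0.00803), both lower, beside 38.2% of all genes. The count was 0 of 10 in *atg18∆* (0.0937% of all genes) and in *vph1∆* (8.09%), where 0 and 1 had an unadjusted p under 0.05. Between *fab1∆* and *atg18∆*, 5 of 10 passed, all lower in *fab1∆* (40.2% of all genes): *IRE1* (-0.35, adjusted p = 0.0176), *KAR2* (-0.38, adjusted p = 0.0263), *JEM1* (-0.24, adjusted p = 0.00367), *LHS1* (-0.34, adjusted p = 0.000195) and *ERO1* (-0.24, adjusted p = 0.0119). Of these, *IRE1*, *JEM1*, *LHS1* and *ERO1* were also the 4 of 10 that were higher in *vph1∆* than in *fab1∆* (31.9% of all genes). Between *vph1∆* and *atg18∆* the count was 0 (4.9% of all genes), with 2 at an unadjusted p under 0.05. In both comparisons of *fab1∆* with another mutant, the member counts were thus near the shares of all genes after this scaling of 16 libraries. With medians set equal and wild-type replicate 3 left out, they were 5 of 10 beside 56% and 4 of 10 beside 48.8% of all genes, below the background. They were also below it, without scaling, on the 8 libraries of each pair and without wild-type replicate 3. The scaling changed the direction of calls over all genes too. In *fab1∆* against wild-type, 955 genes were called higher and 1489 lower after it, and 1468 higher and 39 lower before.

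*LHS1*, the second Hsp70 of the lumen and the exchange factor that shares the UPRE core with *KAR2*, had 13.6, 14.0, 15.2 and 15.2 TPM in *fab1∆* libraries, against 16.7, 16.4, 20.3 and 19.0 TPM in *atg18∆* libraries. All *fab1∆* libraries were below all *atg18∆* libraries. The log2 fold change was -0.29 (95% interval -0.47 to -0.12 without wild-type replicate 3, limma adjusted p = 0.00982). It was -0.29 with an adjusted p of 0.0101 on the 8 libraries of this pair and of 0.385 on all 16. Wild-type libraries had 15.2, 16.5, 7.87 and 18.5 TPM, which overlap *fab1∆*, and against them *LHS1* missed the threshold in *fab1∆* without replicate 3 (-0.19, 95% interval -0.39 to 0.00, adjusted p = 0.102). On the same 15 libraries it was -0.30 with medians set equal (adjusted p = 0.000277) and -0.23 with the replicate number as a block (adjusted p = 0.0081), both past the threshold. In *vph1∆* libraries it had 14.6, 17.5, 18.1 and 15.8 TPM.

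*SIL1*, the other nucleotide exchange factor of Kar2, was among the steadiest of the 10. It averaged 22.2 ± 0.298 TPM in *atg18∆*, 21.8 ± 1.21 TPM in *fab1∆* and 22.3 ± 1.06 TPM in *vph1∆* (SD, n = 4 each), against 21.7 ± 0.885 TPM in wild-type without replicate 3 (SD, n = 3). Replicate 3 had 11.3 TPM, and with it the *SIL1* log2 fold changes were 0.25, 0.22 and 0.25 in these strains (adjusted p of 0.278 to 0.345). Without that library the 95% intervals of the *SIL1* log2 fold change were -0.09 to 0.14 (*atg18∆*), -0.11 to 0.12 (*fab1∆*) and -0.08 to 0.15 (*vph1∆*), and none excluded 0.

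The J protein gene *JEM1* was at 9.80, 10.3, 10.9 and 11.4 TPM in *fab1∆* libraries, against 10.4, 10.7, 5.75 and 13.3 TPM in wild-type libraries, and the strains overlapped. *JEM1* in *fab1∆* was at 0.12 on the log2 scale with all libraries (limma adjusted p = 0.668) and at -0.10 without wild-type replicate 3 (95% interval -0.31 to 0.11, adjusted p = 0.43). With the medians of the libraries set equal it was -0.21 on 16 and on 15 libraries and passed in both (adjusted p = 0.00803 and 0.00843). *SCJ1* encodes the other J protein. *SCJ1* averaged 36.0 ± 2.82 TPM in *atg18∆*, 34.7 ± 1.58 TPM in *fab1∆* and 33.2 ± 1.94 TPM in *vph1∆* (SD, n = 4 each), against 34.2 ± 0.561 TPM in wild-type without replicate 3 (SD, n = 3). Its log2 fold change in *vph1∆* was 0.27 with all libraries and -0.04 without replicate 3, and neither passed the test.

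*ERO1*, of the oxidoreductase genes, was at 32.5, 34.5, 34.3 and 34.6 TPM in *fab1∆* libraries, against 36.3, 36.9, 44.6 and 39.0 TPM in *atg18∆* libraries, with no overlap. Its log2 fold change was -0.20 (95% interval -0.36 to -0.03, limma adjusted p = 0.049 without wild-type replicate 3, 0.0311 on the 8 libraries of the pair and 0.622 on all 16). In *vph1∆* libraries *ERO1* was at 34.7, 40.8, 43.4 and 37.5 TPM, so that the lowest *vph1∆* library was next to the highest *fab1∆* library. In *fab1∆* against wild-type *ERO1* was at 0.16 with all libraries (adjusted p = 0.601) and at -0.13 without replicate 3 (adjusted p = 0.232). On those 15 libraries it passed with the medians set equal (-0.24, adjusted p = 0.00135) and with the replicate number as a block (-0.17, adjusted p = 0.0316). The difference between *vph1∆* and *fab1∆* was 0.19, with an adjusted p of 0.0405 on the 8 libraries of this pair and 0.0585 without wild-type replicate 3.

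*PDI1*, the most abundant folding enzyme of the list, had 354.5, 364.4, 314.3 and 345.7 TPM in *fab1∆* libraries, against 321.8, 319.1, 83.9 and 301.5 TPM in wild-type libraries. Wild-type replicate 3 was far below the rest, and *fab1∆* replicate 3 lay within the range of the other wild-type libraries. The log2 fold change in *fab1∆* was 0.60 (95% interval -0.03 to 1.24, limma adjusted p = 0.157), the largest of the 10 genes in any mutant, and 0.13 (95% interval -0.04 to 0.31, adjusted p = 0.21) without that library. With the replicate number as a block and without that library it was 0.17 (adjusted p = 0.00994), and with medians set equal and without that library it was 0.02 (adjusted p = 0.886). *EUG1* averaged 14.6 ± 0.812 TPM in *fab1∆*, 14.5 ± 1.42 TPM in *vph1∆* and 14.2 ± 0.916 TPM in *atg18∆* (SD, n = 4 each), against 13.7 ± 0.345 TPM in wild-type without replicate 3 (SD, n = 3), and passed no test.

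*HAC1*, the message that Ire1 splices, was at 355.0, 337.5, 340.0 and 366.3 TPM in *fab1∆* libraries, against 335.6, 318.1, 182.6 and 328.3 TPM in wild-type libraries. All *fab1∆* libraries were above all wild-type libraries. The log2 fold change was 0.30 ± 0.15 (SE, limma adjusted p = 0.152) and 0.09 ± 0.05 (SE, adjusted p = 0.17) without replicate 3. Its direction in *fab1∆* also turned when the medians of all libraries were set equal (-0.03 with 16 libraries and -0.02 without replicate 3). In *vph1∆* libraries *HAC1* was at 286.3, 329.1, 314.1 and 339.1 TPM. It was lower in *vph1∆* than in *fab1∆* by 0.14 on the log2 scale, which passed the test without wild-type replicate 3 (95% interval -0.25 to -0.04, adjusted p = 0.032) and missed it on the 8 libraries of the pair (adjusted p = 0.0579) and on all 16 (adjusted p = 0.673).

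*IRE1* was the most variable of the 10 in each mutant, and in wild-type with replicate 3 set aside (coefficient of variation 22.6%). With replicate 3, *PDI1* varied more in wild-type (45.0% against 41.7%). *IRE1* was at 4.93, 5.20, 7.71 and 7.16 TPM in *atg18∆* libraries, 4.38, 4.46, 5.06 and 5.34 TPM in *fab1∆* libraries and 4.83, 6.94, 7.37 and 6.09 TPM in *vph1∆* libraries, against 4.70, 5.01, 2.21 and 7.02 TPM in wild-type libraries. In *atg18∆* and *fab1∆*, replicates 3 and 4 were both above replicates 1 and 2, and with replicate 3 set aside the same held for the one wild-type library left. The means of log2(TPM + 1) of replicates 3 and 4 were higher than those of replicates 1 and 2, with differences of 0.48 (*atg18∆*), 0.19 (*fab1∆*) and 0.18 (*vph1∆*). The labels do not say which numbers shared a day, so whether this split is a culture day was not tested. *IRE1* was higher in *vph1∆* than in *fab1∆* by 0.32 on the 8 libraries of the pair (SE 0.114, limma adjusted p = 0.0427), but not at the threshold without wild-type replicate 3 (adjusted p = 0.0937) or on all 16 libraries (adjusted p = 0.497). With medians set equal it passed on 16 libraries (0.34, adjusted p = 0.0246) and on 15 (adjusted p = 0.0161).

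The split between replicates 1 and 2 and replicates 3 and 4 took opposite signs in different genes. *LHS1* (0.23, 0.13 and 0.08 in *atg18∆*, *fab1∆* and *vph1∆*) and *JEM1* (0.17, 0.14 and 0.07) were higher in replicates 3 and 4 of every mutant. *PDI1* (-0.24, -0.12 and -0.23) and *SCJ1* (-0.16, -0.10 and -0.13) were lower in the same libraries. In *fab1∆* and *vph1∆*, *KAR2* was lower than wild-type in replicates 1 and 2, and in replicates 3 and 4 only with wild-type replicate 3 left out. In replicates 1 and 2 alone, its log2 difference from wild-type was -0.33 in *fab1∆* and -0.45 in *vph1∆* (n = 2 against 2). In replicates 3 and 4 it was -0.36 and -0.28 against the single wild-type library left without replicate 3, and 0.41 and 0.49 with that library included.

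The genes with the pattern most like that of *KAR2* were not those of its partners. By Pearson's r of log2(TPM + 1) over the 15 libraries without wild-type replicate 3, they were *SSA2* (0.935), which encodes an Hsp70 of the cytosol, *FUR1* (0.931), a uracil phosphoribosyltransferase, *CBF1* (0.913), a DNA-binding protein of centromeres and promoters, *TNA1* (0.909), a nicotinic acid permease, and *COX5A* (0.906), a subunit of cytochrome c oxidase. *LHS1* came highest of the other 9 ER folding genes, at rank 403 with r = 0.60, and *PDI1* and *EUG1* had negative values (-0.19 and -0.23). Over all 16 libraries the leading genes were *CBF1* and *TNA1* (both 0.979), *PDS1* (0.976), *FUR1* and *ATP2* (both 0.972), and *LHS1* was at rank 457. The points share the strains and, in the second set, the 1 outlying library, which alone raised the value of *PDI1* to 0.821. These correlations are descriptions over 15 and 16 libraries and carry no test.

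The rest of the ER folding and quality control pathway was followed through 6 further lists of 53 genes, all of which were tested. With all 16 libraries, no gene of any list passed the limma test in *atg18∆* or *vph1∆*, beside 0.0468% and 4.87% of all genes. An unadjusted p under 0.05 was reached by 0 and 9 of the 53 in these strains, beside 405 and 1486 of the 6404 genes tested. In *fab1∆* 6 of 53 passed, all higher, beside 23.5% of all genes, nearly all of them higher as well. They were *FPR2* and *CPR5* among 7 other folding factors, both prolyl isomerases of the secretory pathway; *DER1*, *UBC7* and *UFD1* among 14 genes of ER-associated degradation (ERAD), the route by which misfolded proteins are returned to the cytosol and degraded; and *SEC72* among 13 genes of the translocon and signal peptidase. None of 7 genes for glycan trimming and lectins, 9 of the oligosaccharyltransferase and 3 of *HAC1* splicing and Ire1 control passed. The calls of *FPR2*, *CPR5* and *UFD1* were lost when any 1 of the 4 *fab1∆* libraries was left out (adjusted p of 0.0529 to 0.0846), with log2 fold changes of 0.37 to 0.38, 0.44 to 0.48 and 0.63 to 0.65 in these fits, and all 6 missed the threshold when *fab1∆* was fitted with wild-type alone (adjusted p of 0.0804 to 0.193). The list medians in *fab1∆* were 0.21 (folding factors), 0.38 (ERAD) and 0.08 (translocon), beside 0.25 for all genes.

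*DER1*, which encodes a membrane protein of the ERAD channel, averaged 19.5 ± 0.804 TPM in *fab1∆* (SD, n = 4) and ranged from 18.4 to 20.3 TPM there, against 14.8 to 15.2 TPM in wild-type replicates 1, 2 and 4. Its log2 fold change was 0.46 ± 0.12 (SE, limma adjusted p = 0.0089) and 0.35 ± 0.06 (SE, adjusted p = 0.000274) without replicate 3. *SEC72*, a subunit of the Sec63 complex for translocation after translation, ranged from 87.7 to 94.2 TPM in *fab1∆*, against 69.6 to 71.5 TPM in wild-type replicates 1, 2 and 4. Its log2 fold change was 0.44 (adjusted p = 0.00234) and 0.37 (adjusted p = 6.41e-06). *UFD1*, a cofactor of the Cdc48 ATPase that extracts ERAD substrates, ranged from 27.7 to 28.7 TPM in *fab1∆*, against 21.3 to 23.1 TPM in those wild-type libraries, with a log2 fold change of 0.64 (adjusted p = 0.0317) and 0.33 (adjusted p = 1.4e-05). *UFD1* was the one of these 6 that also passed after the medians of the 16 libraries were set equal (0.31, adjusted p = 0.00504).

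When wild-type replicate 3 was left out, further genes of these lists passed in both directions in *fab1∆*. The counts were 2 higher of 7 folding factors, 5 higher of 14 ERAD genes, 5 higher and 1 lower of 13 translocon and signal peptidase genes, 1 higher and 2 lower of 9 oligosaccharyltransferase genes, and 2 lower of 7 glycan genes, beside the 42.4% of all genes given above. Among those that were lower, *OST6*, a thioredoxin-like subunit of the oligosaccharyltransferase, averaged 27.2 ± 1.81 TPM in *fab1∆* (SD, n = 4), against 36.1 ± 6.21 TPM in wild-type replicates 1, 2 and 4 (SD, n = 3), with no overlap between them (log2 fold change -0.39, limma adjusted p = 0.0161). *CWH41*, the glucosidase that trims the first glucose of N-glycans, had 16.1 to 17.4 TPM in *fab1∆*, against 18.7 to 21.7 TPM in those wild-type libraries (-0.23, adjusted p = 0.0177). *OST1* (-0.26, adjusted p = 0.00618) and *MNL1*, also called *HTM1*, a mannosidase that marks glycoproteins for degradation (-0.28, adjusted p = 0.0303), were the other named genes that were lower. All 4 missed the threshold with 16 libraries, where *OST6* was at -0.19 and *OST1* at 0.01. With the medians of the 16 libraries set equal, *OST6* (-0.52, adjusted p = 0.000128) and *OST1* (-0.32, adjusted p = 0.001) passed. So did *CWH41* (adjusted p = 0.00703), and *MNL1* did not (adjusted p = 0.0695). With the medians of the 15 libraries set equal all 4 passed. Of the higher genes named above, *DER1*, *UFD1* and *SEC72* passed there. *FPR2*, *CPR5* and *UBC7* did not (adjusted p of 0.104 to 0.247).

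**Figure D4:**
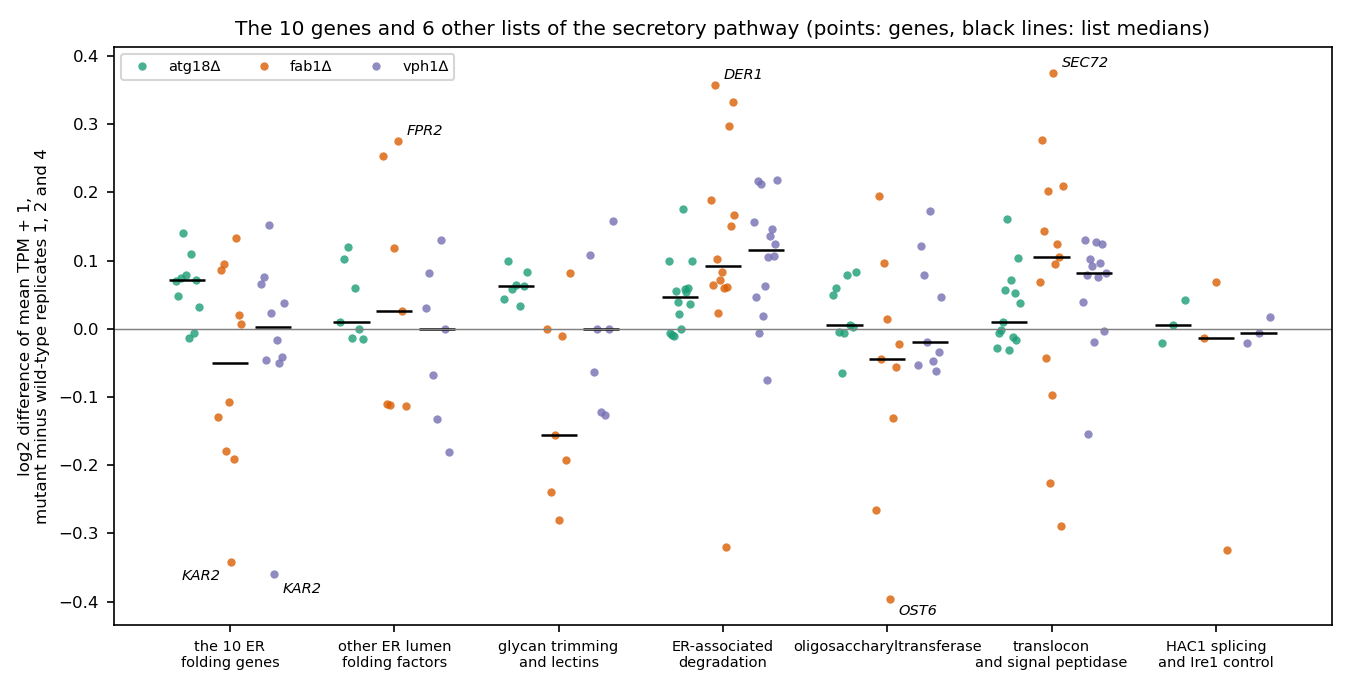
Log2 difference of mean TPM + 1 between each mutant and wild-type replicates 1, 2 and 4 (vertical axis) for the 10 ER folding genes and the 6 other lists (horizontal axis). Points are genes, black lines are list medians, and colours mark *atg18∆*, *fab1∆* and *vph1∆*. *KAR2* is the lowest of the 10 genes in *fab1∆* and in *vph1∆*, and *DER1* and *SEC72* are the highest of their lists in *fab1∆*.

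In *vph1∆* without wild-type replicate 3, *DER1* was higher as well (0.21, limma adjusted p = 0.0298), together with *USA1*, a scaffold of the Hrd1 ligase (0.22, adjusted p = 0.0143). *OST5* was higher (0.17, adjusted p = 0.014) and *MPD2*, a member of the Pdi1 family, lower (-0.18, adjusted p = 0.0375), beside 14.7% of all genes. With all 16 libraries none of these passed, at 0.31 for *DER1*, 0.50 for *USA1*, 0.08 for *OST5* and 0.03 for *MPD2*. With the medians of the 15 libraries also set equal, *MPD2* still passed (adjusted p = 0.0361), and *DER1* (adjusted p = 0.31), *USA1* (adjusted p = 0.0694) and *OST5* (adjusted p = 0.494) did not. No listed gene passed in *atg18∆* by limma without that library, beside 0.0937% of all genes. An unadjusted p under 0.05 was reached there by 1 listed gene, beside 380 of the 6404 genes tested.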

How the data were processed

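The members and lists were chosen with earlier results of these data known. The authors quantified transcripts with Salmon in pseudo-alignment mode, without trimming adaptors, against the Ensembl SacCer3 transcriptome, and deposited TPM values, which are scaled to transcript length and sum to 1000000 in each library. The submitters' processing notes list Salmon 0.8.1, and the methods give another version. The labels name polyA RNA, whereas the protocol describes libraries without polyA selection. TPM hold no read counts, so depth is unknown and the sleuth test of the study could not be run.

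The 6404 genes whose mean TPM reached 1 were tested. A linear model of log2(TPM + 1), holding 1 mean per strain over all 16 libraries, was fitted by limma 3.58.1 under R 4.3.3 with a variance trend and Benjamini-Hochberg adjustment at 0.05. A fold change is on the log2(TPM + 1) scale, which understates changes of low genes. The script was tested on simulated data. Groups came from the labels, and no p-value measures more than the spread between these cultures.

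The genes named are the 10 members, the deleted genes, up to 3 genes per further list and mutant with the smallest p among those past the threshold, and the 5 genes most correlated with *KAR2*. Alternatives were quantile normalization, median scaling, pseudocounts of 0.1 and 5, no filter or a filter at a mean of 10, a fit of the compared strains alone, no variance trend, the replicate number as a block, a term for replicates 1 and 2 against 3 and 4, and each of 16 libraries left out. Leaving out wild-type replicate 3 together with median scaling or the block was added after seeing the data. Gene names and sequences were taken from RefSeq R64, which held 6011 of the 6844 identifiers. No member overlapped another RefSeq gene or shared a 31-base stretch with another coding sequence. Protein sequences were not used here.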

Additional observations from a re-analysis of the deposited data

Results flagged for a closer look

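In 7 of the 40 groups of 4 libraries (10 genes in 4 strains), the highest or lowest library lay further from its nearest neighbour than Dixon's 95% limit allows for the range of the group. Chance flags about 1 in 20 groups. Of the 7, 6 were wild-type replicate 3, a single library, so they are not separate events. It was the lowest wild-type library for *KAR2* (63.3 TPM, next 179.4 TPM), *PDI1* (83.9 TPM, next 301.5 TPM), *EUG1* (6.24 TPM, next 13.4 TPM), *SIL1* (11.3 TPM, next 20.8 TPM), *SCJ1* (13.8 TPM, next 33.6 TPM) and *HAC1* (182.6 TPM, next 318.1 TPM). The remaining one was *ERO1* in *fab1∆* replicate 1, at 32.5 TPM with the next library at 34.3 TPM, a small gap in a group with little spread.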

How the results depend on the processing

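Depth is unknown, and levels near 1 TPM carry the least information. The count of members called in *atg18∆* was 0 under every alternative run, where only 1 to 9 of all genes were called. That 0 therefore says little about the members. In *fab1∆* against wild-type the count was 0 with all 16 libraries (23.5% of all genes). It was 2 with median scaling (38.2% of all genes) or quantile normalization (39% of all genes), and 0 to 1 when libraries were left out in turn. In *vph1∆* it was 0 to 1 over the libraries left out. Between *fab1∆* and *atg18∆* the count was 5 with median scaling (40.2%) or quantile normalization (44%), 3 in the fit of these strains alone (49.8%) and 0 to 3 over the libraries left out. Between *vph1∆* and *atg18∆* it was 1 in the fit of the pair alone (6.51%) and 0 to 1 over the libraries left out. Between *vph1∆* and *fab1∆* it was 4 with median scaling (31.9%) or quantile normalization (35%), 2 in the fit of the pair alone (43.4%) and 0 to 1 over the libraries left out. The higher end of each of these ranges was reached without wild-type replicate 3. The shares of all genes were then 42.4% in *fab1∆* and 14.7% in *vph1∆* against wild-type. Between mutants they were 47.7% (*fab1∆* and *atg18∆*), 12.1% (*vph1∆* and *atg18∆*) and 41.1% (*vph1∆* and *fab1∆*). With wild-type replicate 3 left out, adding median scaling or the replicate block gave 4 in *fab1∆* (51.2% and 54.7% of all genes under these settings) and 1 in *vph1∆* (13.2% and 17.7%). Under the same settings the count was 5 and 6 between *fab1∆* and *atg18∆* (56% and 58.2%), 1 and 1 between *vph1∆* and *atg18∆* (12.6% and 16.4%), and 4 and 5 between *vph1∆* and *fab1∆* (48.8% and 53.2%). The replicate block on all 16 libraries left each count at 0. By the check made, same-numbered libraries shared some variation, but most libraries did not correlate best with their own number. In deviations from the strain means, 16 of 24 same-numbered pairs of libraries correlated above 0.1. The best match had the same number for 5 of 16 libraries. With wild-type replicate 3 left out these counts were 16 of 21 and 6 of 15. The median correlation of same-numbered pairs was 0.181 with 16 libraries and 0.239 with 15, against -0.0589 and -0.116 for other pairs. Libraries of different strains that were both among replicates 1 and 2, or both among 3 and 4, then had a median correlation of 0.271, against -0.281 across this split. Pseudocounts, filters, the variance trend and a term for replicates 1 and 2 against 3 and 4 changed no count of members and turned no direction. They were run with all 16 libraries only, where wild-type replicate 3 widens the spread. The SE of *KAR2* between *fab1∆* and *atg18∆* was 0.246 with that library and 0.0589 without it. The term was not run without that library, so its bearing on those counts was not tested.

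No member had passed the test against wild-type with 16 libraries, so the turns of direction below concern log2 fold changes whose first value was not called. With median scaling *SIL1* was -0.032 in *atg18∆*. In *fab1∆* it was -0.11 there, with *KAR2* -0.29, *ERO1* -0.17, *LHS1* -0.27, *JEM1* -0.21, *HAC1* -0.025 and *IRE1* -0.24. In *vph1∆* median scaling gave *KAR2* -0.29, *LHS1* -0.078, *SIL1* -0.053, *JEM1* -0.056, *SCJ1* -0.036 and *HAC1* -0.14. With quantile normalization *SIL1* was -0.015 in *atg18∆*. The values in *fab1∆* were *KAR2* -0.26, *EUG1* -0.0039, *ERO1* -0.15, *LHS1* -0.29, *SIL1* -0.099, *JEM1* -0.22 and *IRE1* -0.22. In *vph1∆* they were *KAR2* -0.21, *LHS1* -0.077, *SIL1* -0.032, *JEM1* -0.062 and *SCJ1* -0.0087.

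Without wild-type replicate 3 and with median scaling, *atg18∆* gave *KAR2* -0.075, *PDI1* -0.073, *EUG1* -0.01 and *SIL1* -0.033. Under that setting *fab1∆* gave *KAR2* -0.45, *EUG1* -0.026, *ERO1* -0.24, *LHS1* -0.30, *SIL1* -0.11, *JEM1* -0.21, *SCJ1* -0.09, *HAC1* -0.015 and *IRE1* -0.28. In *vph1∆* it gave *KAR2* -0.45, *PDI1* -0.14, *EUG1* -0.016, *ERO1* -0.023, *LHS1* -0.11, *SIL1* -0.053, *JEM1* -0.056, *SCJ1* -0.13 and *HAC1* -0.13. Without that library and with the replicate block, *KAR2* was -0.035 in *atg18∆*. In *fab1∆* the block gave *KAR2* -0.36, *ERO1* -0.17, *LHS1* -0.23, *SIL1* -0.016, *JEM1* -0.13 and *IRE1* -0.23. In *vph1∆* the block gave *KAR2* -0.39, *PDI1* -0.018, *LHS1* -0.061, *JEM1* -0.0014, *SCJ1* -0.021 and *HAC1* -0.039.

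Over the libraries left out in turn, *KAR2* took values of -0.014 to 0.50 in *atg18∆*, -0.34 to 0.18 in *fab1∆* and -0.37 to 0.15 in *vph1∆*. *PDI1* took values of -0.011 to 0.63 in *atg18∆* and -0.055 to 0.59 in *vph1∆*. In *fab1∆* the ranges were -0.13 to 0.31 for *ERO1*, -0.19 to 0.19 for *LHS1*, -0.10 to 0.26 for *JEM1* and -0.17 to 0.27 for *IRE1*. In *vph1∆* they were -0.021 to 0.36 for *LHS1*, -0.043 to 0.38 for *SCJ1* and -0.048 to 0.24 for *HAC1*. The lowest value came each time without wild-type replicate 3. *KAR2* in *vph1∆* was also below 0 without *vph1∆* replicate 3 (-0.049).

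Of the other genes named, *OST1* in *fab1∆* was -0.32 with median scaling and -0.29 with quantile normalization. In the same strain *CWH41* was -0.26 and -0.25 and *MNL1* -0.25 and -0.26 under those settings. In *vph1∆* they gave -0.23 and -0.039 for *OST5* and -0.27 and -0.25 for *MPD2*. With wild-type replicate 3 left out, median scaling gave *OST1* -0.37, *CWH41* -0.34 and *MNL1* -0.39 in *fab1∆* and *MPD2* -0.27 in *vph1∆*, and the replicate block gave -0.27, -0.27, -0.31 and -0.17 for the same genes. Over the libraries left out in turn the ranges were -0.26 to 0.14 for *OST1*, -0.23 to 0.21 for *CWH41*, -0.28 to 0.24 for *MNL1* and -0.18 to 0.11 for *MPD2*. *OST1* also fell below 0 without *fab1∆* replicate 2 (-0.014) or 4 (-0.00031), and *MPD2* without *vph1∆* replicate 1 (-0.0044).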
